A study of Mus musculus with 2 samples.

Results

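The 10 genes described here belong to the BCL2 family, which decides at the mitochondrion whether a cell survives or dies. They were chosen by name: the pro-survival genes Bcl2, Bcl2l1 (BCL-XL) and Mcl1, the effector genes Bax and Bak1, and the BH3-only genes Bcl2l11 (BIM), Bbc3 (PUMA), Pmaip1 (NOXA), Bid and Bad. All 10 were found, among 28013 genes with a summed value in the transcript table and 37820 genes in the gene table. The values come from polyadenylated RNA of haematopoietic stem cells (HSCs), in columns headed BM and FL. BM is read as adult bone marrow HSCs of B6129SF1 mice aged 6 to 8 weeks, which are described by 2 samples, and FL as fetal liver HSCs (E14.5 embryos), of which no separate samples were analysed here and no strain is stated. Neither group carries a stated mutation or treatment, and neither the sort markers nor the number of mice behind a library is stated in the labels.

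As background, BAX and BAK1 permeabilise the outer mitochondrial membrane, which releases cytochrome c and starts the caspase cascade. BCL2, BCL-XL and MCL1 hold them and the BH3-only proteins in check, and BH3-only proteins relay stress signals by binding the pro-survival proteins or by activating the effectors. In mice, loss of Mcl1 depletes HSCs, and forced expression of Bcl2 in blood cells raises HSC numbers.

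Each deposited column is a single value per feature, in FPKM (fragments mapped to a feature, scaled by its length and by the library total), and is read as the authors' mean over libraries. No difference below could therefore be set against a spread between libraries, no test was possible, and "higher" or "lower" compares 2 deposited numbers. Expressed genes are those that reach 1 FPKM in at least 1 of the columns compared. The relative log2 ratio is log2 of BM over FL after adding 0.1 FPKM to each, centred on the median gene that reaches 1 FPKM in both, a shift of 0.01 in the transcript table. The pseudocount understates the difference of genes near it.

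The header BM does not carry the same values in both tables. Over 11077 genes that reached 1 FPKM in both, the BM column of the gene table stood at a median of 1.05 times the FL sum of the transcript table, and 78.9% of these genes lay within 10% of that median. The BM column of the gene table is therefore set beside the FL sums as a check, and is not read as adult HSCs. Whether the gene table's headers are exchanged or name another preparation cannot be told apart here, so its values are given by header alone. All 8 HSC markers, among them Kit, Ly6a, Slamf1 and Procr, reached 1 FPKM in both columns of the transcript table, with summed levels of 615 FPKM in BM and 468 FPKM in FL. Of these, Ly6a alone was at least 2-fold higher in BM (36.0 FPKM in BM and 6.62 FPKM in FL), and the other 7 lay within 2-fold. Markers of other cells were unequal between these columns: all 9 erythroid markers were lower in BM (summed 35.9 FPKM in BM and 744 FPKM in FL), as were all 9 macrophage markers (6.46 and 220 FPKM) and 5 of 9 neutrophil and monocyte markers (218 and 620 FPKM), while 4 of 6 megakaryocyte markers were higher (760 and 129 FPKM). The erythroid gene Alas2 and the macrophage gene Timd4 were listed at 0 in BM, and no marker of these 4 lists was listed at 0 in FL. Hepatocyte markers summed to 13.3 FPKM in BM and 41.2 FPKM in FL, with 5 of 6 expressed ones at least 2-fold lower in BM. Endothelial markers summed to 30.0 FPKM in BM and 48.0 FPKM in FL, and 4 of 7 were at least 2-fold lower in BM. Of these, Cdh5 was at 0.0183 FPKM in BM and 7.67 FPKM in FL, while Pecam1, within 2-fold, was at 19.3 and 16.9 FPKM. Of the expressed T and NK markers 2 of 3 were at least 2-fold higher in BM (summed 26.0 and 6.40 FPKM). The same held for 2 of 3 expressed stromal markers (13.5 and 10.8 FPKM). Of 2 expressed B cell markers 1 was lower in BM (summed 17.1 and 22.3 FPKM). The part of these cells in any difference below was not tested, and in bulk RNA fewer cells of a type cannot be told apart from less RNA per cell.

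Among the 10 members, Bcl2 alone was at least 2-fold higher in BM and Bax alone was at least 2-fold lower, among the 9 that were expressed. The other 7 expressed members lay within 2-fold, and Pmaip1 was under 1 FPKM in both columns. The transcript table had 12221 expressed genes, of which 13.3% passed 2-fold towards BM and 8.82% passed it towards FL, so 1 of 9 in each direction is near the share among all genes. The members' median relative log2 ratio was -0.21, and that of all expressed genes was 0.02.

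**Figure D1:**
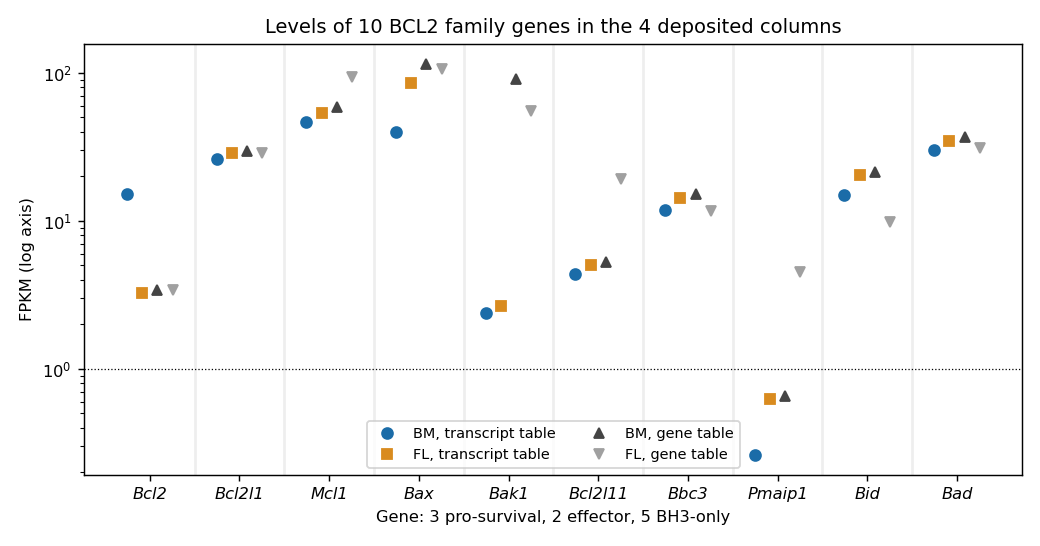
FPKM of each of the 10 genes on a log axis in the BM and FL columns of the transcript table (summed over linked transcripts) and the BM and FL columns of the gene table; the dotted line marks 1 FPKM and each point is a single deposited or summed value. Bcl2 stands at 15.2 FPKM in BM of the transcript table and between 3.27 and 3.44 FPKM in the other columns, and the Bak1 points of the transcript table, at 2.40 and 2.65 FPKM, lie far under its gene table values.

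Bcl2, the founding pro-survival gene, was at 15.2 FPKM in BM and 3.27 FPKM in FL of the transcript table, a 4.65-fold difference with a relative log2 ratio of 2.18. That ratio was higher than those of 96.3% of expressed genes. Both values come from 1 transcript, Bcl2-201, which encodes the 236-residue protein; the gene table's BM column, the check of FL, gave 3.40 FPKM, 1.04 times the FL value of the transcript table. Among the 10 members Bcl2 was the 5th most abundant in BM and the 8th in FL, with Bak1 counted at its linked transcripts only. It made up 17.3% of the summed FPKM of the 3 pro-survival genes in BM and 3.83% in FL.

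The Bcl2 locus holds an annotated antisense gene, D630008O14Rik, that shares 558 exonic bases with Bcl2 on the opposite strand. It was named after its values were seen. D630008O14Rik was at 3.89 FPKM in BM and 0.584 FPKM in FL, 6.67-fold apart in the same direction as Bcl2. No label says whether the counting used strand, so reads over the shared bases cannot be assigned to either gene with certainty.

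The promoter windows of Bcl2 and Bax are shown because these are the members that differed by 2-fold, in opposite directions. Each is the 250 bases before a RefSeq start site in build GRCm38.p6, 5′ to 3′ on the gene's strand, and capitals mark matches on either strand to the GC box GGGCGG, the FOXO core GTAAACA and the E-box CACGTG, with overlapping GC boxes each counted.
Bcl2, chr1:106714291-106714540, minus strand: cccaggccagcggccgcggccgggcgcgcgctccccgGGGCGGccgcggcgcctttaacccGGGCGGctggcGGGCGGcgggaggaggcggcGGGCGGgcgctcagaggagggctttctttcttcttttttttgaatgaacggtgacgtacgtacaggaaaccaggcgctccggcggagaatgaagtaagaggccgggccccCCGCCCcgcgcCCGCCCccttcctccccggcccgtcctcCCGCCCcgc
Bax, chr7:45466899-45467148, minus strand: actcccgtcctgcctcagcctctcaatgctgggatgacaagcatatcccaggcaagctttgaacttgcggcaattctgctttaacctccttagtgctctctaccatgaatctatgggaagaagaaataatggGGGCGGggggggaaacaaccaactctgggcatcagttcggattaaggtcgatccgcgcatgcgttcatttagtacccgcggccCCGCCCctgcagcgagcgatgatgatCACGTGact
The Bcl2 window had a GC content of 74.8%, higher than in 95.8% of the 32536 distinct windows of all genes, and held 7 GC boxes. The Bax window had a GC content of 54.0%, and held 2 GC boxes and 1 E-box, a sequence that MYC and related factors can bind. A GC box, the sequence Sp1 recognises, was in 33% of all windows, an E-box in 6.04% and a FOXO core in 3.17%. Windows were found for 9 of the 10 members, all but Pmaip1. Of the members' 15 windows, 10 held a GC box, 2 an E-box and 2 a FOXO core. A match describes these letters and shows no binding.

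Mcl1, a short-lived pro-survival protein gene on which HSCs depend, was the most abundant of the pro-survival members. It was at 46.3 FPKM in BM and 53.4 FPKM in FL, with a relative log2 ratio of -0.21. Its values rest on Mcl1-201, the single linked transcript, which encodes a 331-residue protein. Mcl1 made up 52.8% of summed pro-survival FPKM in BM and 62.5% in FL. It was above 84.0% of expressed genes in BM and above 84.4% in FL, so its place among all genes was nearly equal in both columns.

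Bcl2l1, whose main product BCL-XL protects maturing erythroid cells and platelets, was at 26.2 FPKM in BM and 28.8 FPKM in FL. The relative log2 ratio was -0.14, and 0.35 when only the leading transcript of each column was used. The erythroid markers, which were lower in BM, and the megakaryocyte markers, of which 4 of 6 were higher, are given above, and their part in the Bcl2l1 level was not tested. Bcl2l1 gave 29.8% of summed pro-survival FPKM in BM and 33.7% in FL.

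The transcripts of Bcl2l1 were unequal in their shares although the sums were close. Bcl2l1-201, a 233-residue BCL-XL transcript, led both columns, with 16.5 FPKM or 62.9% of the sum in BM and 13.2 FPKM or 45.9% in FL. Bcl2l1-202, which encodes a protein of the same length from another start site, was at 0.434 FPKM in BM and 4.39 FPKM in FL, or 1.66% and 15.2% of the sum. These transcripts differ in where they start and not in the length of the encoded protein. Bcl2l1-208, a partial transcript that starts near Bcl2l1-201, was also lower, at 0.350 FPKM in BM and 2.39 FPKM in FL, while the partial Bcl2l1-204 was higher, at 1.503 FPKM in BM and 0.289 FPKM in FL. In all, 22.8% of the Bcl2l1 sum stood on different transcripts in the 2 columns. The median of that share was 11.0% over 7332 genes with at least 2 linked transcripts that reached 1 FPKM in both columns, and 79.2% of them had a smaller share. Cufflinks, which the submitters' processing notes name, assigns reads of overlapping isoforms by likelihood, so these shares are estimates.

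RefSeq gives 3 start sites for Bcl2l1, and the upper pair in the gene's direction is shown because the transcripts whose shares differed most begin there. The middle site lies within 100 bases of the starts of Bcl2l1-202, Bcl2l1-204, Bcl2l1-205 and Bcl2l1-207, and the upstream site within 100 bases of those of Bcl2l1-201 and Bcl2l1-208.
Bcl2l1 upstream start, chr2:152831729-152831978, minus strand: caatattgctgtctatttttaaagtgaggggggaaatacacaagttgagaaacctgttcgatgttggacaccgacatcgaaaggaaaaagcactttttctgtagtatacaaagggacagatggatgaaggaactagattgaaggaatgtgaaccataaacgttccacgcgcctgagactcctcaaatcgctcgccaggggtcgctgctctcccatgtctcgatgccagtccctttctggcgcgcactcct
Bcl2l1 middle start, chr2:152830718-152830967, minus strand: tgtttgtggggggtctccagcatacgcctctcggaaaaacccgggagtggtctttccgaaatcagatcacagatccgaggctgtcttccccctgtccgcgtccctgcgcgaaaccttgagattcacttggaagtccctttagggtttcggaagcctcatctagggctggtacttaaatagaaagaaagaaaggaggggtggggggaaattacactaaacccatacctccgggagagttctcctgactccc
Transcripts of the upstream start summed to 16.8 FPKM in BM and 15.6 FPKM in FL, or 64.2% and 54.2% of all Bcl2l1. Transcripts of the middle start summed to 3.75 FPKM in BM and 7.02 FPKM in FL, or 14.3% and 24.4%. The windows had GC contents of 47.6% at the upstream start and 53.2% at the middle start, and neither held any of the 3 motifs.

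**Figure D2:**
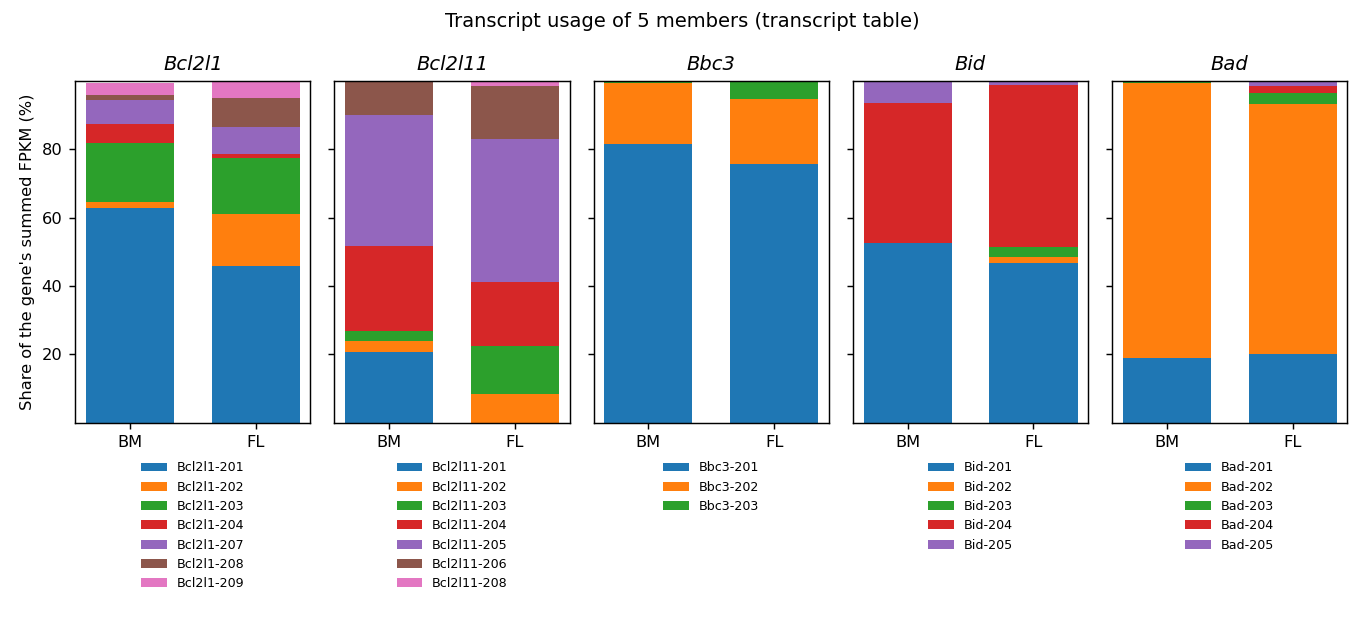
Share of each gene's summed FPKM, in percent, carried by each annotated transcript in the BM (left bar) and FL (right bar) columns of the transcript table for 5 members; transcripts under 1% in both columns are left out. Bcl2l1-202 takes 15.2% of the FL bar and 1.66% of the BM bar, and Bcl2l11-201 appears in the BM bar alone, at 20.6%.

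Bax, an effector gene that is also a known target of p53, was at 39.9 FPKM in BM and 85.7 FPKM in FL, 2.15-fold lower in BM with a relative log2 ratio of -1.11. Among expressed genes, 7.55% had a lower ratio. Bax was the most abundant member in FL and the second in BM, after Mcl1, with Bak1 counted at its linked transcripts only. Its values come from Bax-201, the only linked transcript, which encodes a protein of 192 residues. The gene table gave 116 FPKM in BM, 1.35 times the FL sum, against the median of 1.05 for all genes, so the tables differ more for Bax than for the median gene, which was not tested further. The ratio describes Bax-201 and may not hold for the whole gene. The ratio was -0.99, just inside 2-fold, under upper-quartile scaling.

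Bak1, the second effector gene, had levels in the transcript table that stood far from the gene table, so its ratio between adult and fetal HSCs is uncertain. Its 3 linked transcripts summed to 2.40 FPKM in BM and 2.65 FPKM in FL, while the BM column of the gene table had 90.7 FPKM, 34.2 times that FL sum. Bak1 was then the second most abundant of the 10 members in the gene table's BM column, after Bax. The leading transcript differed between the columns, with Bak1-202 at 1.49 FPKM in BM and 0.0466 FPKM in FL, and Bak1-203 at 0.279 FPKM in BM and 2.11 FPKM in FL. Bak1 shares exonic bases with Ggnbp1 on the opposite strand, whose 2 annotated genes were higher in BM (4.99 and 1.504 FPKM in BM against 1.29 and 0.359 FPKM in FL).

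**Figure D3:**
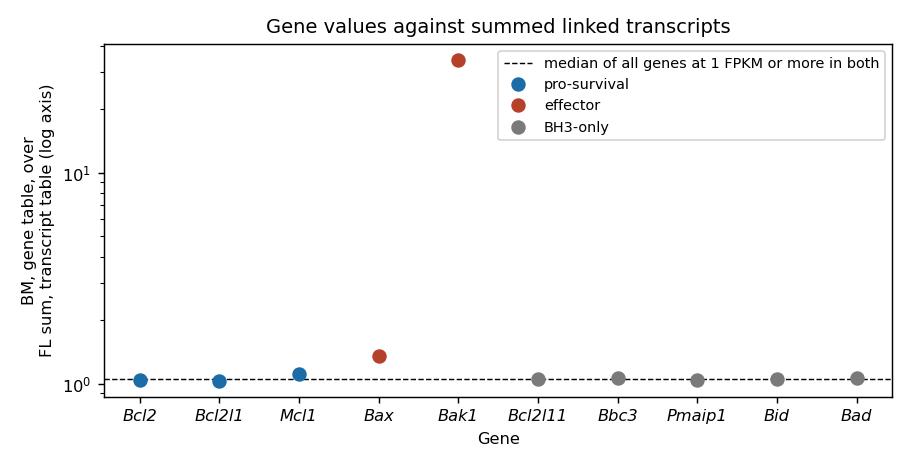
Ratio of the BM column of the gene table to the FL sum of the transcript table for each of the 10 genes, on a log axis, coloured by role; the dashed line is the median ratio of 1.05 over genes that reached 1 FPKM in both. The other 8 genes lie between 1.03 and 1.11, under Bax at 1.35 and Bak1 at 34.2.

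Bcl2l11, whose product BIM is a BH3-only protein that kills blood cells deprived of cytokine, was at 4.36 FPKM in BM and 5.04 FPKM in FL, with a relative log2 ratio of -0.21. The gene table had 5.29 FPKM in BM, 1.05 times the FL sum. The 196-residue form, which matches BIM-EL by its length, came from Bcl2l11-205 and was the leading transcript in both columns, at 1.67 FPKM in BM and 2.11 FPKM in FL. The 110-residue form, the length of the short BIM-S, summed over 2 transcripts to 1.98 FPKM in BM and 0.952 FPKM in FL, or 45.4% and 18.9% of all Bcl2l11. The 140-residue form, the length of BIM-L, was at 0.118 FPKM in BM and 0.705 FPKM in FL. Of the 110-residue transcripts, Bcl2l11-204 was at 1.08 FPKM in BM and 0.952 FPKM in FL, so most of the difference came from Bcl2l11-201, at 0.897 FPKM in BM and near 0 in FL. Transcripts at these levels are the least certain of those described, and 26.5% of the Bcl2l11 sum stood on different transcripts, a larger share than in 84.2% of the genes with several transcripts.

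FOXO3 is known to activate Bcl2l11 in blood cells, and the promoter window of its main start is shown because it holds one of the FOXO cores found among the members.
Bcl2l11, chr2:128125788-128126037, plus strand: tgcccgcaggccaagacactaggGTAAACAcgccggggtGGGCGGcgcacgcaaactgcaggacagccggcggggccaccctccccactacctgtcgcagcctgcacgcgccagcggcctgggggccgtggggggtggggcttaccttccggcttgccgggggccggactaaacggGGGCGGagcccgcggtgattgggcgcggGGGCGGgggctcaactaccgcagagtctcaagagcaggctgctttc
The window held 1 FOXO core and 3 GC boxes at a GC content of 72.0%, and 6 of the 8 linked transcripts start within 100 bases of its end. Foxo3 itself, named for this window rather than by the rule for list genes, was at 37.7 FPKM in BM and 37.7 FPKM in FL.

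The other BH3-only genes were within 2-fold where they were expressed. Bad, whose protein is held inactive by survival signalling through phosphorylation and 14-3-3 binding, was at 30.2 FPKM in BM and 34.8 FPKM in FL (-0.21). Bad-202, encoding 162 residues, led with 80.5% of the sum in BM and 73.2% in FL, followed by Bad-201, encoding 204 residues, with 18.8% and 20.1%. Bad was the most abundant BH3-only gene in both columns. It shares 524 exonic bases with Gpr137 on the opposite strand, which was at 11.2 FPKM in BM and 8.60 FPKM in FL.

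Bid, which caspase-8 cleaves to link death receptors to mitochondria, was at 15.03 FPKM in BM and 20.3 FPKM in FL (relative log2 ratio -0.44). Bid-201, the coding transcript of 195 residues, was at 7.92 FPKM in BM and 9.53 FPKM in FL, and Bid-204, annotated as a target of nonsense-mediated decay, at 6.16 and 9.59 FPKM. These close values exchanged the first place, so Bid and Bak1 were the 2 of 6 members with several transcripts whose leading transcript differed between the columns. Over all such genes 13.7% (1004 of 7332) had different leading transcripts. Bid shares 628 exonic bases with Bcl2l13, which lies on the opposite strand.

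Bbc3, a p53 target whose product PUMA binds all main pro-survival proteins, was at 11.9 FPKM in BM and 14.2 FPKM in FL (-0.26). Bbc3-201, encoding 193 residues, held 81.6% of the sum in BM and 75.8% in FL. Pmaip1, a p53 target whose product NOXA acts mainly against MCL1, was at 0.261 FPKM in BM and 0.629 FPKM in FL, under the level called expressed. Depth is unknown, so the precision of such low values is not known.

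Ratios between members within a column are free of the scaling between columns. Bcl2 over Bax was 0.382 in BM and 0.0382 in FL, 9.99 times apart, with the reservation on Bax above. Bcl2 over Bcl2l11, a partner that BCL2 binds, was 3.49 in BM and 0.649 in FL, so Bcl2 was above Bcl2l11 in BM and under it in FL. Bcl2 over Bbc3 was 1.28 in BM and 0.230 in FL. The 4 ratios computed without Bcl2 or Bax were close: Bcl2l1 over Bcl2l11 was 6.01 in BM and 5.72 in FL, Mcl1 over Bcl2l11 was 10.6 in BM and 10.6 in FL, Mcl1 over Bbc3 was 3.89 in BM and 3.75 in FL, and Bcl2l1 over Bad was 0.868 in BM and 0.829 in FL.

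The summed FPKM of the pro-survival genes was 87.7 in BM and 85.5 in FL, close to each other although Bcl2 differed. The 5 BH3-only genes summed to 61.7 FPKM in BM and 75.0 FPKM in FL. Pro-survival over pro-apoptotic sums gave 0.844 in BM and 0.524 in FL over all 10 members, with Bak1 at its low transcript table sums. Without Bax and Bak1 it was 1.42 in BM and 1.14 in FL. These are sums of RNA, and the family acts as proteins.

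Other genes of the death pathway were taken from 4 lists, and abundant members of each list and those at least 2-fold apart are named. Of 15 other BCL2 family genes 8 were expressed, 1 was higher and 1 lower, with a median relative log2 ratio of -0.34. Bmf, a BH3-only gene, was the higher one, at 1.31 FPKM in BM and 0.507 FPKM in FL, and Bok, an effector-like gene, the lower one, at 3.41 FPKM in BM and 9.99 FPKM in FL. The mitophagy receptor genes Bnip3l (97.5 FPKM in BM and 99.9 FPKM in FL) and Bnip3 (19.4 and 22.1 FPKM) and the gene Bcl2l12 (16.1 and 22.6 FPKM) had the highest means over both columns in this list.

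In the list of apoptosome genes, caspases and their inhibitors, 13 of 14 genes had linked transcripts and all 13 were expressed. None was at least 2-fold higher in BM and 2 were lower, with a median of -0.43. Birc5, which encodes survivin, a protein of both mitosis and survival, was at 31.1 FPKM in BM and 103 FPKM in FL. Cycs, the cytochrome c gene, was at 27.9 FPKM in BM and 56.5 FPKM in FL, close to the 2-fold line at -1.02; Cycs has many processed pseudogenes, so its value is uncertain. Htra2, a mitochondrial protease gene, was at 52.6 FPKM in BM and 88.0 FPKM in FL.

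The death receptor arm and the regulators held no expressed gene at least 2-fold apart, beside 13.3% higher and 8.82% lower over all expressed genes. Of 9 death receptor genes 7 were expressed, with a median of 0.20. The TNF receptor gene Tnfrsf1a was at 47.0 FPKM in BM and 44.4 FPKM in FL, Casp8, the initiator that cleaves BID, at 35.3 FPKM in BM and 30.5 FPKM in FL, and Cflar, an inhibitor of caspase-8, at 30.6 FPKM in BM and 16.2 FPKM in FL. Of 17 regulators and partners 16 were expressed, with a median of 0.04. The 14-3-3 genes Ywhae (472 FPKM in BM and 705 FPKM in FL) and Ywhaz (343 and 353 FPKM), whose products bind phosphorylated BAD, and the channel gene Vdac1 (141 and 201 FPKM) had the highest means over both columns. The p53 gene Trp53, named outside the rule as the regulator of Bax, Bbc3 and Pmaip1, was at 129 FPKM in BM and 187 FPKM in FL.

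**Figure D4:**
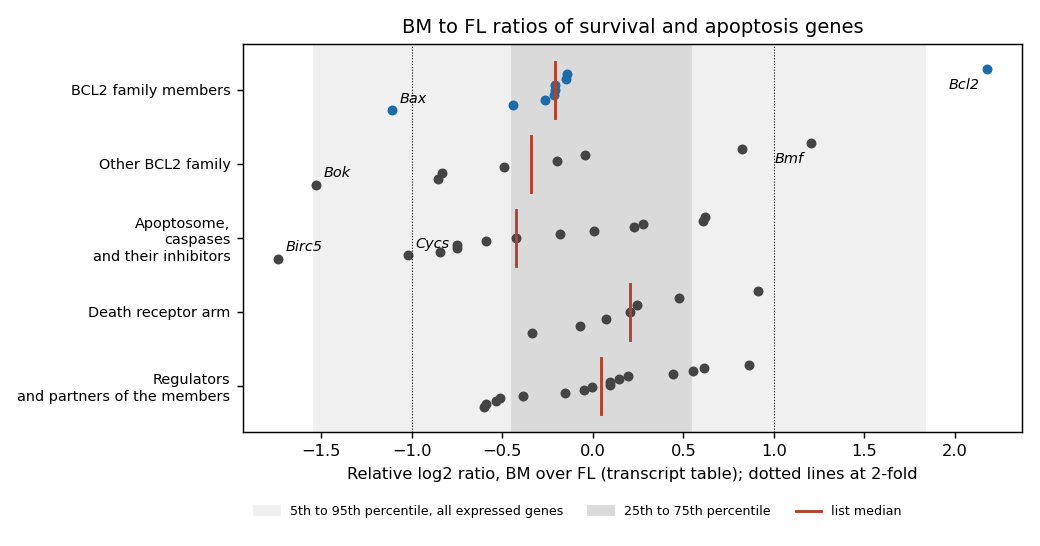
Relative log2 ratio of BM over FL in the transcript table for the expressed genes of 5 lists; each point is a gene, red bars are list medians, and shaded bands give the percentiles of all expressed genes. Bcl2, at 2.18, lies above the 95th percentile of 1.83, Bax lies at -1.11, the other members sit between -0.44 and -0.14, and the point of Bak1 rests on sums far under its gene table value.

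The columns of the gene table are described last, by header only, since a BM value there need not be adult and an FL value there need not be fetal. Its endothelial markers summed to 53.1 FPKM in BM and 2067 FPKM in FL and its stromal markers to 11.7 FPKM in BM and 740 FPKM in FL, so the column headed FL there carried endothelial and stromal markers far above the other columns. The 8 HSC markers summed to 508 FPKM in BM and 481 FPKM in FL of the gene table, with Slamf1 at 14.9 FPKM in BM and 0.652 FPKM in FL, but Procr at 54.0 FPKM in BM and 121 FPKM in FL and Cd34 at 120.4 FPKM in BM and 279 FPKM in FL. All 10 members were expressed there; none was at least 2-fold higher in the column headed BM, 2 were lower and 8 lay within 2-fold. Over the 13834 expressed genes of the gene table, the shares were 12.3% higher and 23.6% lower in BM.

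The members lower in the gene table's BM column were BH3-only genes. Pmaip1 was at 0.654 FPKM in BM and 4.49 FPKM in FL, with a relative log2 ratio of -2.85, and Bcl2l11 was at 5.29 FPKM in BM and 19.2 FPKM in FL (-2.08). Bid was at 21.5 FPKM in BM and 9.81 FPKM in FL, which is 0.88 after centring on a median shift of 0.24. Mcl1 was at 59.1 FPKM in BM and 93.4 FPKM in FL (-0.90), and Bak1 at 90.7 FPKM in BM and 55.6 FPKM in FL (0.47). Bcl2 was at 3.40 FPKM in BM and 3.44 FPKM in FL, Bcl2l1 at 29.7 and 28.9 FPKM, Bax at 116 and 107 FPKM, Bad at 36.9 and 31.1 FPKM, and Bbc3 at 15.1 and 11.7 FPKM. The endothelial and stromal markers were higher in the column where Bcl2l11, Pmaip1 and Mcl1 were higher. So were the summed macrophage markers (232 FPKM in BM and 646 FPKM in FL) and megakaryocyte markers (140 and 352 FPKM). Of the macrophage markers, however, Marco (28.4 and 0.372 FPKM), Vcam1 (11.0 and 2.19 FPKM) and Timd4 (6.46 and 2.46 FPKM) were lower in FL. Of the megakaryocyte markers, Gp9 (24.0 and 4.82 FPKM), Itga2b (23.3 and 9.08 FPKM) and Gp1bb (3.07 and 1.45 FPKM) were lower too. The other markers of both lists were higher in FL. Summed erythroid markers (304 and 118 FPKM) and neutrophil and monocyte markers (656 and 144 FPKM) were lower in the column headed FL. Among the erythroid markers, Hba-a1 (41.9 and 58.1 FPKM), Hba-a2 (10.1 and 27.3 FPKM) and Alas2 (1.31 and 2.10 FPKM) were higher there. Lyz2 was nearly equal (95.5 and 96.1 FPKM), and the other markers of both lists were lower in FL. The part of any of these cells in the members' values was not tested.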

How the data were processed

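HSCs had been sorted into a lysis reagent, and RNA was poly(A)-selected and used for NEBNext Ultra RNA libraries, per the labels' protocols. The authors deposited FPKM values per gene and per transcript, with 1 BM and 1 FL column in each table. TopHat, Cufflinks, featureCounts, Subread, edgeR and the build mm9 appear, per the submitters' processing notes, with no role or version. FPKM retains no depth, so no interval is given.

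Transcripts were linked to genes by Ensembl identifier through GENCODE M21 (GRCm38), whose coordinates were not joined to the files: 76512 of 87641 transcripts were linked, and unlinked ones held 10.9% of the BM and 10.4% of the FL FPKM. Transcript FPKM were summed per gene. Protein lengths and start sites come from that annotation, and promoter sequences from RefSeq (GRCm38.p6). The members, lists, motifs and comparisons were chosen with earlier results of these data known. Named list genes are the 3 most abundant of each list and those at least 2-fold apart, up to 6; some items the rule allows are not reported here. The ratio calculation was tested on simulated data. Alternatives were pseudocounts of 1 and 0.01, other scaling, coding or leading transcripts only, a filter of 5 FPKM or none, a 1.5-fold limit, and the gene table's BM column for FL. Python 3.11.15, numpy 2.4.6, pandas 2.3.3 and matplotlib 3.10.9 were used.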

Additional observations from a re-analysis of the deposited data

How the results depend on the processing

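The count of 1 member at least 2-fold higher in BM (Bcl2) held under every alternative run, and the ratio of Bcl2 ranged between 1.92 and 2.30. Several of these runs could hardly change it. Bcl2 has 1 linked transcript, a coding one, and 15.2 FPKM in BM, so the transcript and filter alternatives used the same values for it. No alternative set another measurement in place of its BM value. The count of members at least 2-fold lower, 1 in the values reported, was 0 under upper-quartile scaling, where Bax was at -0.99, and 0 without Bax and Bak1, an alternative chosen after seeing the data. It was 2 with no filter, which adds Pmaip1, and 2 with the gene table's BM values in place of the FL sums, which sets Bak1 at -5.07; the cause of its gap between the tables was not tested. The members' median ratio moved by less than 1.5-fold under all alternatives. The pro-survival over pro-apoptotic ratio without Bax and Bak1 was 1.42 in BM and 1.14 in FL. With the gene table's BM column for FL, the FL ratio over all members was 0.323, with Bak1 at 90.7 FPKM. That column gave 0.473 without Bak1, against 0.864 in BM of the transcript table. Without Bax and Bak1 it gave 1.16. Of 70 single-gene values under alternatives, 68 moved by less than 1.5-fold, 2 moved by more (Bak1 as above and Pmaip1, at -0.37 with a pseudocount of 1) and 0 of the values at least 2-fold apart changed sign. No replicate could be left out, since the columns hold no replicate values. No paired analysis was possible because the columns carry no replicate numbers. Depth is unknown, which limits most the members under 5 FPKM.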
